A study of Zea mays with 45 samples.

Results

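Aquaporins are membrane channels that let water, and in some subfamilies small uncharged solutes, cross a membrane. Spotted cDNA arrays of maize leaf RNA carried probes for 11 aquaporin genes, and 5 of them are described here: the plasma membrane proteins PIP1-1, pip1-2 (LOC541779) and PIP1-3, the vacuolar protein TIP4-1 and the NOD26-like protein NIP2-3. They were chosen by name, through the gene annotation of the probes, out of 329 named genes on the arrays. The 5 genes were carried by 7 probes in each of the 2 value tables, because PIP1-1 and PIP1-3 had 2 probes each. For PIP1-1 the first probe is the clone AW433358 and the second AI947800, and the first PIP1-3 probe is AW862744 and the second AI947544. The reference annotation lists PIP1-4 as another name of PIP1-3 and Lsi6 as another name of NIP2-3.

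Plasma membrane intrinsic proteins (PIPs) carry water between the cell and its wall, and in maize the PIP1 type reaches the plasma membrane and raises its water permeability when it pairs with the PIP2 type. Tonoplast intrinsic proteins (TIPs) do the same for the vacuole, the largest water store of a leaf cell. Proteins of the NIP2 group move silicic acid, and the rice Lsi6 protein is known for unloading silicon from the xylem in leaves. Members of the PIP1 type are close in sequence, and a cDNA probe may hybridise with RNA of more than one of them, so values are given per probe.

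The study asked how maize leaves of high-altitude landraces and of a lower-altitude inbred respond to ultraviolet-B (UV-B) radiation. Each array compared a pair of labelled RNA samples, and its value is a log2 ratio. The labels describe 6 maize lines: the landraces Confite, Mishca, Arrocillo, Cacahuacintle and Conico, and the inbred W23. Some labels write W23 b,pl, for alleles of anthocyanin regulator genes, and others of the same groups write W23 alone, so both were treated as 1 line. The 45 deposited columns formed 22 groups of a comparison, line and treatment.

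In the field, plants stood under frames of plastic film put up about 14 days after sowing. Leaves under cellulose acetate, which passed solar UV-B, were set against leaves of the same line under polyester, which removed it (13 columns). Leaves under UV-B lamps were set against leaves under solar UV-B (12 columns). In further arrays leaves of a landrace were set against W23 leaves under the same treatment, either with supplemental UV-B or without UV-B (20 columns). Where W23 was set beside Confite or Mishca, the labels give greenhouse plants grown for 3 weeks without UV-B and then exposed to lamps for 8 h, with lamps behind polyester for the plants without UV-B. The labels give no field exposure time, and they are silent on whether leaves were pooled or replicate arrays came from different plants. So the spread behind each p-value is that between arrays, which may be technical.

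Of the 45 columns, 8 repeated another column under the opposite channel order and 1 was the mean of other columns, which left 36 distinct arrays: 9 in the solar and 8 in the supplemental comparison, 12 that set Arrocillo, Cacahuacintle or Conico beside W23, and 7 that set Confite or Mishca beside it. The number of arrays limits the precision. A probe was spotted 3 times, and the spots of the aquaporin probes differed by a median SD between 0.010 and 0.081 on the log2 scale within a comparison. Each label says which RNA was in which channel, but the numerator of the ratio is not named. For this reason values are placed on the positive or negative side of the deposited ratio, and no statement is made on which leaves held more RNA. Pairs of arrays of 1 group with opposed channels had a correlation above 0 over probes in 2 of 3 solar pairs, 0 of 2 supplemental pairs, 6 of 6 pairs of Arrocillo, Cacahuacintle or Conico, and 1 of 3 pairs of Confite or Mishca. With each section of the array centred on its own median it was above 0 in 3 of 3, 2 of 2, 6 of 6 and 1 of 3 of these pairs. Ratios carry no level, so the leaf identity of the RNA could not be checked against markers.

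Under solar UV-B against no UV-B, pip1-2 stood on the positive side in every line and the first PIP1-3 probe on the negative side in 4 of 6 lines. A linear model with 1 term per line and 1 term for the channel order called 4 of the 6 aquaporin probes tested, where called means an adjusted p under 0.05 over all probes, against 35.0% of all 4239 probes tested. TIP4-1 lay on the positive side with pip1-2, and NIP2-3 on the negative side with PIP1-3. The median size of the mean log2 ratio was 0.21 over the 6 aquaporin probes and 0.11 over all probes. These calls rest on the channel term and on a spread shared between probes, as do most calls over all probes. Without the channel term, or with each probe's own variance, none of the 6 was called. Over all probes those fits called 11 and 2, against 1485 in the main fit.

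The pip1-2 probe had a log2 ratio of 0.38 in Confite, 0.07 and 0.01 in Mishca, 0.48 in Arrocillo, 1.09 in Cacahuacintle, 0.53 and 0.31 in Conico, and 0.42 and 1.01 in W23. All 9 arrays were thus above the array median, with Mishca lowest and Cacahuacintle highest. The mean over lines was 0.52 (SE 0.07, n = 9 arrays, 1.44-fold, adjusted p = 0.00825), which ranked 37th by size among the 4239 probes. It was 0.54 when each section of the array was centred on its own median (adjusted p = 0.0067). Among single lines, Cacahuacintle (1.09, adjusted p = 0.0405) and W23 (0.72, adjusted p = 0.0236) were called.

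The first PIP1-3 probe had -0.50 in Confite, -0.55 and -0.20 in Mishca, -0.52 in Arrocillo, 0.04 in Cacahuacintle, -0.06 and 0.35 in Conico, and -1.49 and -0.54 in W23. One W23 array, at -1.49, stood apart below the others, while Cacahuacintle and 1 Conico array lay above the array median. The mean was -0.37 (SE 0.06, n = 9, adjusted p = 0.0106; -0.35 with sections centred), and W23 alone stood at -1.02 (SE 0.12, adjusted p = 0.0138). Its ratio also moved with the channel order: the channel term was -0.28 (SE 0.07, adjusted p = 0.0334), and 28.9% of all probes had a called channel term. With the replicate number as a block in place of that term the mean was -0.23 (adjusted p = 0.0944).

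The second PIP1-3 probe was measured on 7 of 9 arrays and on none of Arrocillo, so it was not tested. Its values were -0.85 in Confite, -0.28 and 0.45 in Mishca, -0.94 in Cacahuacintle, -0.25 and 0.60 in Conico, and 0.57 on 1 W23 array. The 3 positive values came from the 3 arrays with the RNA without UV-B in channel 1, and the 4 negative values from the other arrays.

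The 2 PIP1-1 probes were not called in this fit. The first had a mean of -0.09 (SE 0.04, adjusted p = 0.112) and array values of -0.69, -0.13 and 0.92 at the lowest, the median and the highest. With the replicate block its mean was -0.23 (adjusted p = 0.0416), which is a call, and without Conico it was -0.23 (adjusted p = 0.0355). It was called in 5 of 29 alternatives in all, among them those without 1 W23 array, where the mean was -0.09 and -0.08. Conico (0.64, adjusted p = 0.0258) lay opposite to W23 (-0.39, adjusted p = 0.0206) and Cacahuacintle (-0.52, adjusted p = 0.0446). None of these 3 line values was called with sections centred, where they were 0.35, -0.31 and -0.64. The channel term of this probe was 0.29 (SE 0.04, adjusted p = 0.0139). The second PIP1-1 probe had a mean of 0.16 (SE 0.05, adjusted p = 0.061) and was positive on 7 of 9 arrays. It was called in 6 of 29 alternatives, among them those without 1 W23 array, at 0.20 and 0.12. Over all probes, leaving out both W23 arrays raised the number called from 1485 to 2649. Calls gained without W23 are therefore not particular to PIP1-1.

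TIP4-1 had a log2 ratio of 0.54 in Confite, -0.05 and -0.21 in Mishca, 0.37 in Arrocillo, 0.71 in Cacahuacintle, 0.53 and 0.02 in Conico, and -0.15 and -0.21 in W23. Mishca and W23 lay below the array median and the other 4 lines above it. The mean was 0.26 (SE 0.05, n = 9, adjusted p = 0.0145; 0.36 with sections centred), and only Cacahuacintle was called by itself (0.71, adjusted p = 0.0446). Leaving out the Cacahuacintle array gave 0.18 (adjusted p = 0.0562). Over the 3 lines with arrays of both channel orders, Mishca, Conico and W23, the mean was -0.01, so the positive side rested on lines with 1 distinct array. The replicate block gave 0.20 (adjusted p = 0.0831).

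NIP2-3 had 0.20 in Confite, -0.40 and -0.82 in Mishca, -0.38 in Arrocillo, 0.22 in Cacahuacintle, -0.07 and -0.27 in Conico, and 0.00 and -0.27 in W23. The 2 Mishca arrays were the lowest, and Confite and Cacahuacintle the highest. The mean was -0.15 (SE 0.04, n = 9, adjusted p = 0.0366). That call was lost on leaving out any 1 of the Mishca, Conico or Arrocillo arrays, with means between -0.16 and -0.10. Without both Mishca arrays the mean was -0.06 (adjusted p = 0.533), and without centring of the arrays it was -0.07 (adjusted p = 0.556).

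By line, the solar comparison called 3 of the 6 aquaporin probes in Cacahuacintle, where 7.17% of all probes were called, 1 in Conico (4.67% of all probes) and 3 in W23 (23.8% of all probes). A test of the difference between lines called none of the 6 probes, and 0.0236% of all probes, although 4 of the 6 had an unadjusted p under 0.05. If the ratios follow the channel order, none of the 6 mean values was called, and the number called over all probes was 0 as well. By that reading pip1-2 stood at 0.11, the first PIP1-3 probe at -0.07, TIP4-1 at 0.15 and NIP2-3 at 0.07.

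**Figure D1:**
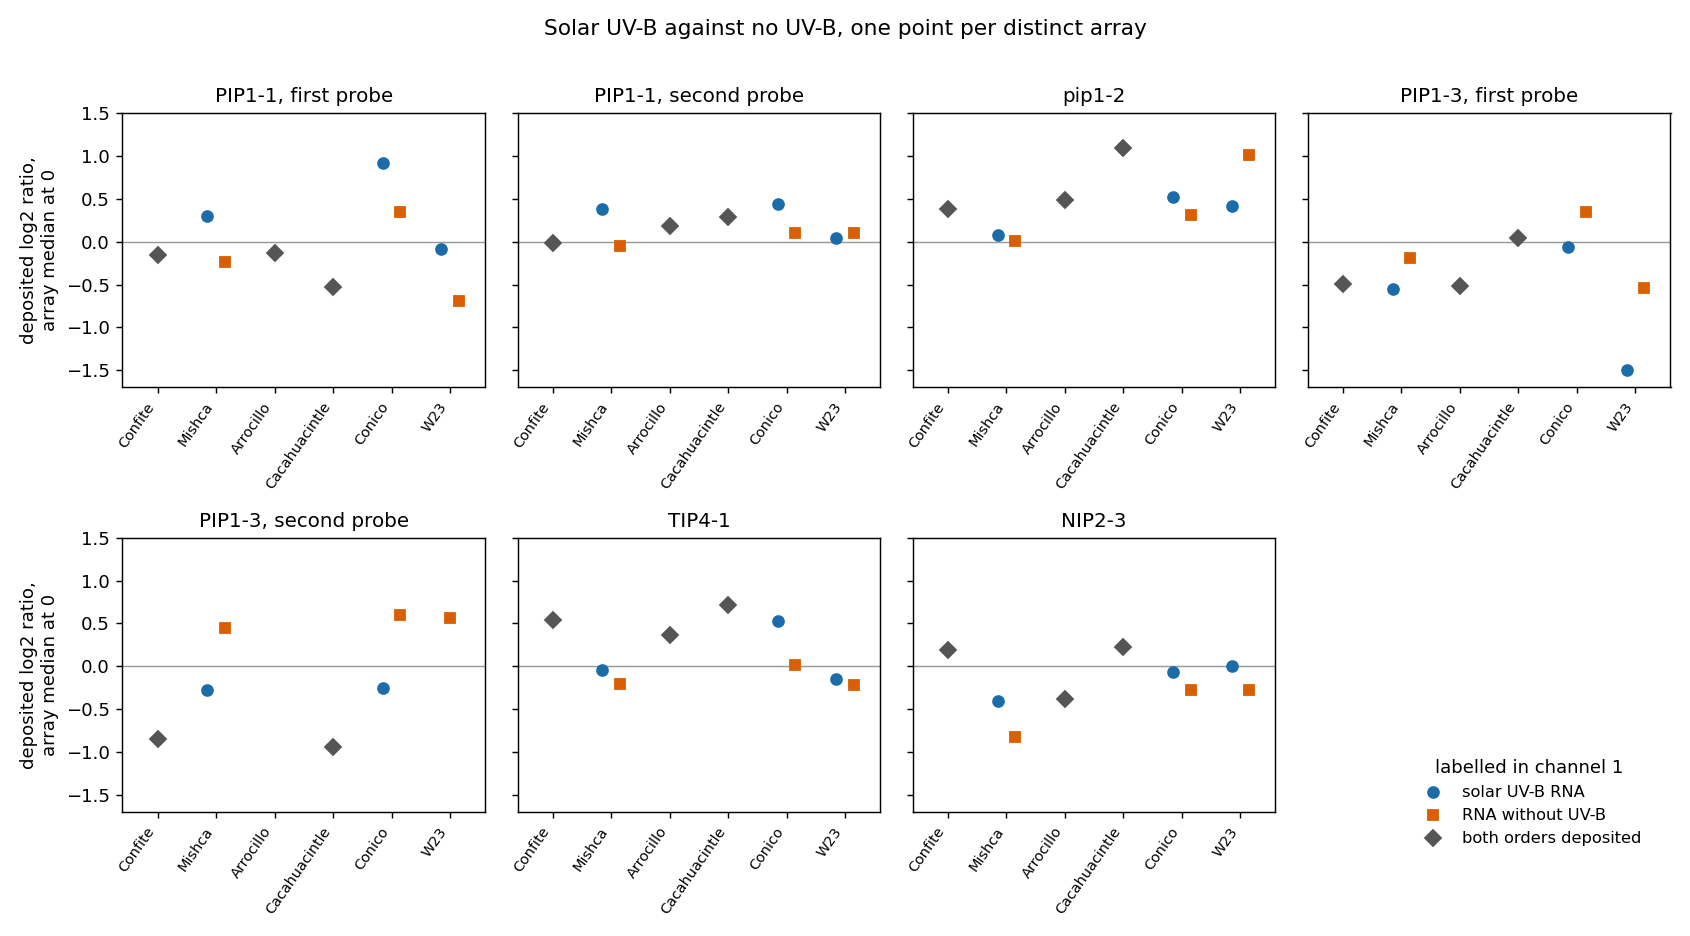
Deposited log2 ratio of each aquaporin probe under solar UV-B against no UV-B, centred on the array median (vertical axis), by line (horizontal axis), with 1 point per distinct array and the shape giving the RNA in channel 1. All 9 pip1-2 points lie above 0, between 0.01 and 1.09, and the lowest PIP1-3 point is a W23 array at -1.49.

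Supplemental UV-B was set against the solar treatment that was tested in the previous comparison, and whether the same solar RNA was used in both is not stated. The Mishca array stood apart: its log2 ratios had an SD of 0.657 over all probes, against 0.285 to 0.431 on the other 7 arrays. The first PIP1-1 probe lay on the negative side on 7 of 8 arrays, with the second probe of the gene beside it, while the first PIP1-3 probe, TIP4-1 and NIP2-3 lay on the positive side. The model called 5 of the 6 aquaporin probes tested, against 31.7% of the 4744 probes tested. The median size of the mean was 0.26 for the aquaporin probes and 0.14 for all probes. With sections centred, 2 of the 5 kept a call, the first probes of PIP1-1 and PIP1-3. The spread in this fit comes from the 2 lines with arrays of both channel orders, Confite and Conico, with 1 residual degree of freedom. Over those 2 lines alone none of the 6 was called, and none was called without the channel term or without a shared variance. The number called over all probes was then 184, 0 and 0, against 1504 in the main fit.

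The first PIP1-1 probe had -0.65 and -0.52 in Confite, -0.55 in Mishca, -0.87 in Arrocillo, -0.43 in Cacahuacintle, -0.33 and 0.59 in Conico, and -0.75 in W23. Only 1 Conico array lay above the array median. The mean over lines was -0.51 (SE 0.08, n = 8 arrays, 1.42-fold, adjusted p = 0.000354; -0.36 with sections centred, adjusted p = 3.88e-05). The lines differed by the test of the difference itself (adjusted p = 0.0478; 24.6% of all probes were called in that test). Conico stood at 0.13 and the other 5 lines between -0.87 and -0.43. With repeated columns given the channel order of their first label the mean was -0.33, and with that of their second -0.68, called in both. The second PIP1-1 probe lay on the same side on all 8 arrays, with values of -0.47 and -0.09 in Confite, -0.28 in Mishca, -0.50 in Arrocillo, -0.08 in Cacahuacintle, -0.20 and 0.21 in Conico, and -0.44 in W23. Its mean was -0.26 (SE 0.07, adjusted p = 0.0125), which became -0.07 with sections centred (adjusted p = 0.371) and -0.13 with the replicate block (adjusted p = 0.343).

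The pip1-2 probe, which led the solar comparison, had -0.15 and -0.22 in Confite, 0.54 in Mishca, -0.23 in Arrocillo, 0.05 in Cacahuacintle, -0.09 and 0.04 in Conico, and -0.12 in W23. Only Mishca lay clearly above the other lines. The mean was 0.01 (SE 0.07, 95% interval -0.15 to 0.16, adjusted p = 0.965). Mishca was called at 0.54 (adjusted p = 0.0366), and stood at 0.13 with sections centred (adjusted p = 0.528).

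The first PIP1-3 probe had -0.46 and 0.02 in Confite, 1.34 in Mishca, -0.11 in Arrocillo, 0.60 in Cacahuacintle, -0.13 and -0.08 in Conico, and 0.77 in W23. Mishca, W23 and Cacahuacintle stood well above the array median and the other 3 lines near or below it. The mean was 0.38 (SE 0.08, n = 8, adjusted p = 0.00147; 0.27 with sections centred, adjusted p = 0.000782). The lines differed (adjusted p = 0.00125), with Mishca at 1.34 (SE 0.20, 2.53-fold, adjusted p = 8.05e-05). Without the Mishca array the mean was 0.19 (adjusted p = 0.12). Over Confite and Conico alone it was -0.16, and -0.22 with sections centred (adjusted p = 0.0408), so the side of the mean depends on lines with 1 distinct array. The second PIP1-3 probe had no value in Mishca and was not tested. It had 0.10 and -0.97 in Confite, 0.05 in Arrocillo, 0.44 in Cacahuacintle, 1.17 and -0.29 in Conico, and 0.17 in W23. Its 2 negative values came from the 2 arrays with the solar UV-B RNA in channel 1.

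TIP4-1 had -0.41 and 0.29 in Confite, 0.68 in Mishca, -0.17 in Arrocillo, 0.35 in Cacahuacintle, 0.18 and 0.42 in Conico, and 0.29 in W23. The mean was 0.23 (SE 0.08, n = 8, adjusted p = 0.028), and the call was lost with sections centred (0.09, adjusted p = 0.232), without the Mishca array (0.14, adjusted p = 0.247) and without the Cacahuacintle array (0.21, adjusted p = 0.0645). NIP2-3 had -0.54 and 0.24 in Confite, 0.98 in Mishca, -0.13 in Arrocillo, -0.09 in Cacahuacintle, 0.36 and 0.33 in Conico, and 0.57 in W23. Its highest value was again in Mishca, and lines differed (adjusted p = 0.0255). The mean was 0.25 (SE 0.08, adjusted p = 0.0247). It lost its call with sections centred (0.11, adjusted p = 0.175), without the Mishca array (0.11, adjusted p = 0.408) and without the W23 array (0.19, adjusted p = 0.105). With repeated columns given the channel order of their first label, TIP4-1 stood at 0.39 and NIP2-3 at 0.38, and both were called. Given the order of their second label, TIP4-1 stood at 0.07 (adjusted p = 0.616) and NIP2-3 at 0.13 (adjusted p = 0.385).

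With arrays centred on their median, Mishca was the only line in which single aquaporin probes were called. These were pip1-2, the first PIP1-3 probe, TIP4-1 and NIP2-3, 4 of 6, where 41.5% of all probes were called. With sections centred 6 single values were called over all lines. The pip1-2 value in Mishca was not among them, so they did not all belong to Mishca. PIP1-1, first probe, stood at -0.55 there. Without the Mishca array 2 of the 6 mean values were called, and with arrays scaled to equal spread 3 were. Over all probes 733 and 879 were then called, against 1504 in the main fit. If the ratios follow the channel order, none was called, and the number called over all probes was 0 as well. By that reading the first PIP1-1 probe stood at -0.37 and the first PIP1-3 probe at 0.50.

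**Figure D2:**
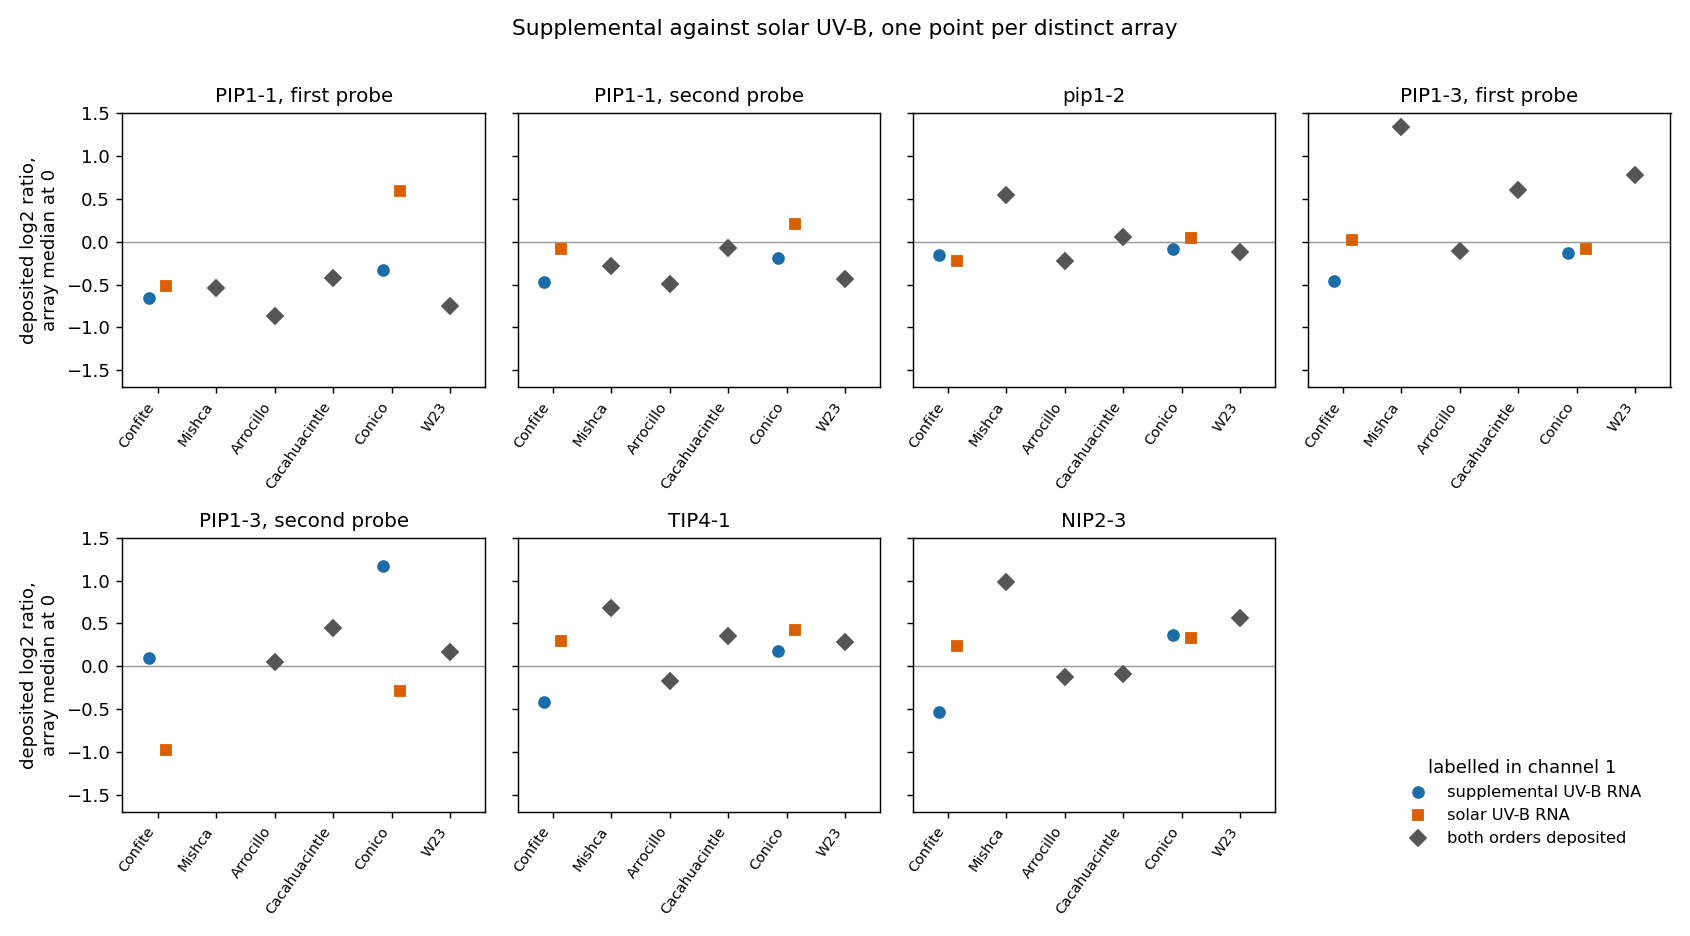
Deposited log2 ratio of each aquaporin probe under supplemental against solar UV-B, centred on the array median (vertical axis), by line (horizontal axis), with 1 point per distinct array and the shape giving the RNA in channel 1. The first PIP1-1 probe lies below 0 on 7 of 8 arrays, and the Mishca array is the highest for PIP1-3, first probe (1.34), TIP4-1 (0.68) and NIP2-3 (0.98).

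In leaves of Arrocillo, Cacahuacintle and Conico set against W23, TIP4-1 was the aquaporin with the largest difference: it lay on the negative side on 12 of 12 arrays. The first PIP1-1 probe lay on the positive side on 11 of 12. These were the 2 of 7 aquaporin probes called, and 25.6% of all 5353 probes tested were called. The other 5, pip1-2, both PIP1-3 probes, the second PIP1-1 probe and NIP2-3, had means between -0.06 and 0.17. The median size of the mean was 0.11 over the 7 probes and 0.12 over all probes.

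With UV-B, TIP4-1 had a log2 ratio of -0.62 and -0.39 in Arrocillo, -0.89 on the single Cacahuacintle array, and -0.83 and -1.08 in Conico. Without UV-B it had -0.12 and -1.27 in Arrocillo, -0.22, -1.65 and -1.49 in Cacahuacintle, and -0.37 and -0.83 in Conico. Every value was below the array median, and the ranges with and without UV-B overlapped. The mean over landraces was -0.83 (SE 0.10, n = 12 arrays, 1.78-fold, adjusted p = 5.97e-05; -0.78 with sections centred), ranked 82nd by size. All 3 landraces were called: Cacahuacintle at -1.11 (SE 0.19, adjusted p = 0.00321), Conico at -0.78 (SE 0.17, adjusted p = 0.0139) and Arrocillo at -0.60 (SE 0.17, adjusted p = 0.0405). The share of all probes called was 8.87% in Cacahuacintle, 5.32% in Conico and 8.20% in Arrocillo. The landraces did not pass a test of the difference between them (adjusted p = 0.998). The channel term of TIP4-1 was -0.32 (SE 0.10, adjusted p = 0.0517) and was not called. TIP4-1 kept its call and side in all 23 alternative fits, between -1.001 and -0.23. The smallest value, -0.23 (adjusted p = 0.0476), is the reading in which the ratios follow the channel order.

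The first PIP1-1 probe, with UV-B, had 0.31 and -0.14 in Arrocillo, 0.22 in Cacahuacintle, and 0.08 and 0.02 in Conico. Without UV-B it had 1.04 and 0.81 in Arrocillo, 0.22, 0.75 and 0.60 in Cacahuacintle, and 0.37 and 0.51 in Conico. In Arrocillo and Conico both arrays with UV-B lay below both arrays without it, and in Cacahuacintle the array with UV-B matched the lowest of those without. The mean was 0.37 (SE 0.07, n = 12, 1.3-fold, adjusted p = 0.0025; 0.43 with sections centred), and Arrocillo was called by itself (0.51, SE 0.12, adjusted p = 0.0203). If the ratios follow the channel order, the mean was 0.02 (adjusted p = 0.924). The difference with minus without UV-B was -0.51 (SE 0.15, unadjusted p = 0.00473, adjusted p = 0.701), with -0.85 in Arrocillo, -0.30 in Cacahuacintle and -0.39 in Conico.

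No aquaporin probe passed the test of this UV-B difference: 0 of 7 by limma, with 1 of 7, the first PIP1-1 probe, at an unadjusted p under 0.05. Over all 5353 probes the share called was 0.00%, with 257 at an unadjusted p under 0.05. The pip1-2 probe had the largest difference of the 7, at -0.52 (SE 0.25, adjusted p = 0.969). With UV-B its values were -1.17 and -0.09 in Arrocillo, -0.34 in Cacahuacintle, and 0.23 and -0.19 in Conico. Without UV-B they were -0.43 and 0.39 in Arrocillo, 0.50, -0.14 and -0.24 in Cacahuacintle, and 0.97 and 0.18 in Conico. The Conico value of 0.97 came from 2 spots with an SD of 0.67, and Cacahuacintle had 1 array with UV-B. For pip1-2 the difference was negative in each of the 3 landraces, at -0.60, -0.41 and -0.56, but the ranges overlapped. These arrays test an interaction of landrace and UV-B, since both RNAs of an array had the same treatment, and the values stand beside the field comparisons with no test between them.

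NIP2-3 had a mean of 0.11 (SE 0.07, adjusted p = 0.299), with 0.32 in Arrocillo, 0.13 in Cacahuacintle and -0.12 in Conico, none of them called. The second PIP1-1 probe averaged 0.03 (SE 0.07, adjusted p = 0.824) and was positive on 6 of 12 arrays. The first PIP1-3 probe averaged -0.02 (SE 0.10), with array values from -0.93 to 0.75, and was the 1 aquaporin probe of 7 with a called channel term (-0.33, SE 0.10, adjusted p = 0.0365; 13.9% of all probes had a called channel term). If the ratios follow the channel order, its mean was -0.26 (adjusted p = 0.0431). The second PIP1-3 probe averaged 0.17 (SE 0.07, adjusted p = 0.0772), with Cacahuacintle highest at 0.42. It was called with sections centred (0.14, adjusted p = 0.0499) and without 1 Arrocillo array with UV-B (0.19, adjusted p = 0.0464).

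**Figure D3:**
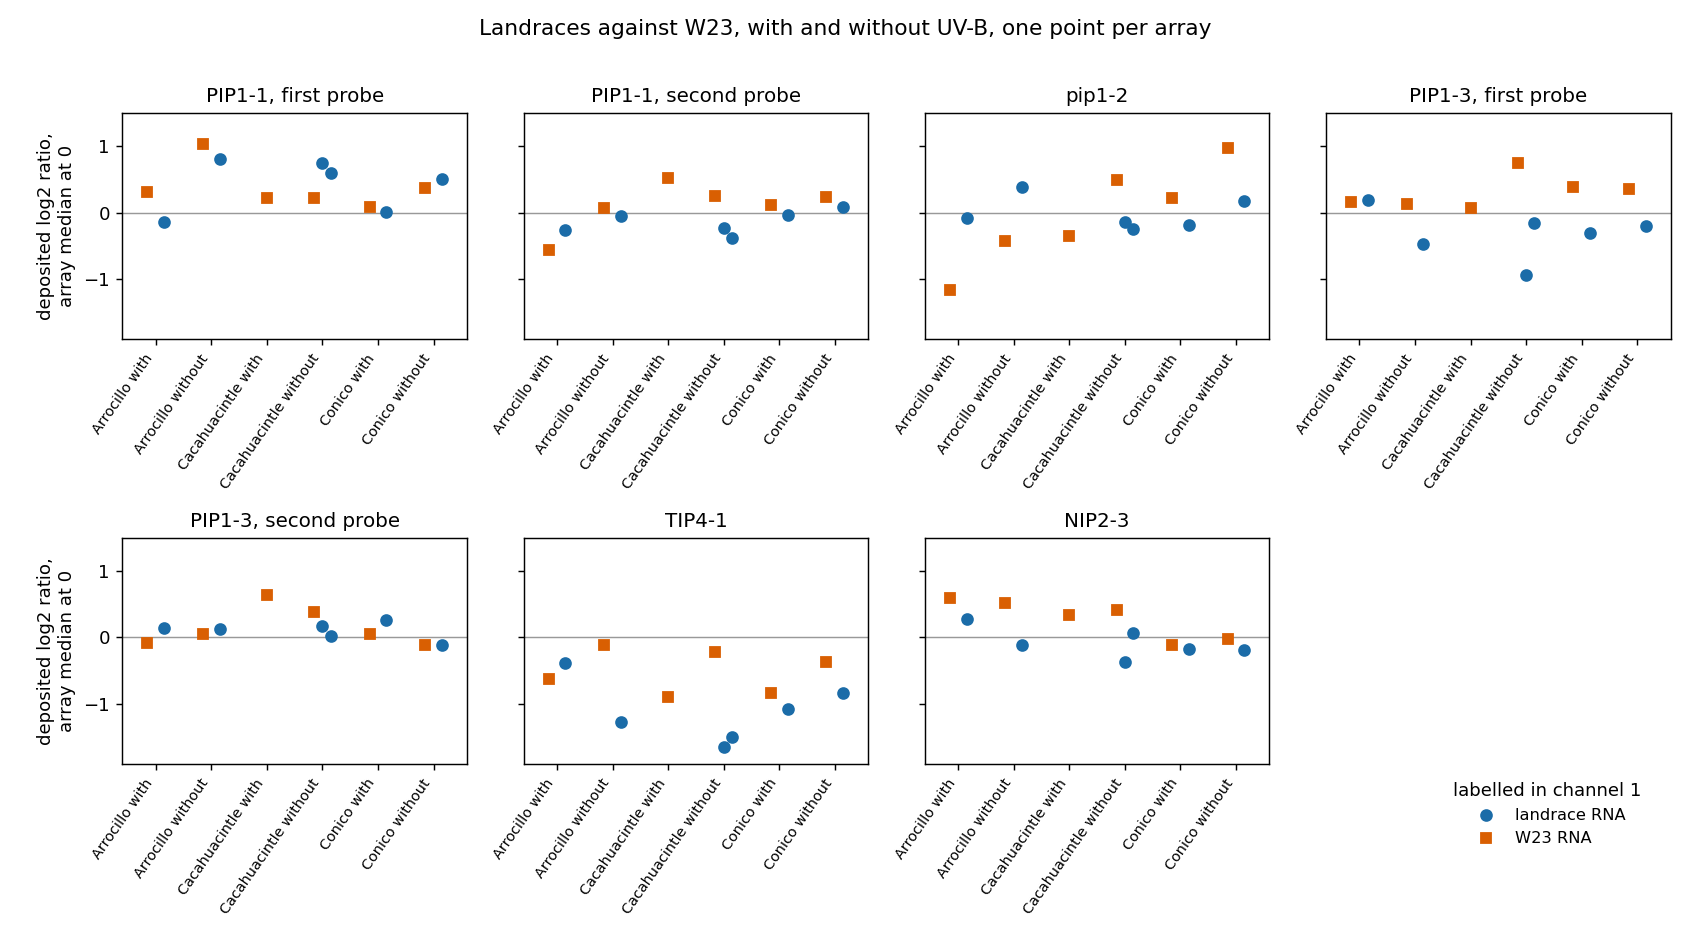
Deposited log2 ratio of each aquaporin probe in leaves of Arrocillo, Cacahuacintle and Conico against W23, centred on the array median (vertical axis), by landrace with and without UV-B (horizontal axis), with 1 point per array and the shape giving the RNA in channel 1. TIP4-1 lies below 0 on 12 of 12 arrays, between -1.65 and -0.12, and the first PIP1-1 probe above 0 on 11 of 12.

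For Confite and Mishca against W23, 5 probes of PIP1-1, PIP1-3 and NIP2-3 were tested and none was called by limma, with none at an unadjusted p under 0.05. Of all 2089 probes tested 1.63% were called. The 5 means lay between -0.03 and 0.16 with standard errors of 0.18 to 0.20, wider than in the other comparisons. TIP4-1 was measured on 5 of 7 arrays and pip1-2 on 4 of 7, too few for the test. TIP4-1 was negative on 5 of 5 arrays, from -0.87 to -0.07, and pip1-2 positive on 4 of 4, from 0.02 to 0.52. The TIP4-1 values of -0.87 and -0.51 each rested on 1 spot, and that of -0.19 on 2 spots. With sections centred pip1-2 was positive on 3 of 4 arrays. The first PIP1-3 probe spread most, from -0.94 on a Confite array with UV-B to 1.22 on a Mishca array with UV-B. These arrays belong to another table than those of the other 3 landraces, so the sets of landraces were not tested against each other.

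**Figure D4:**
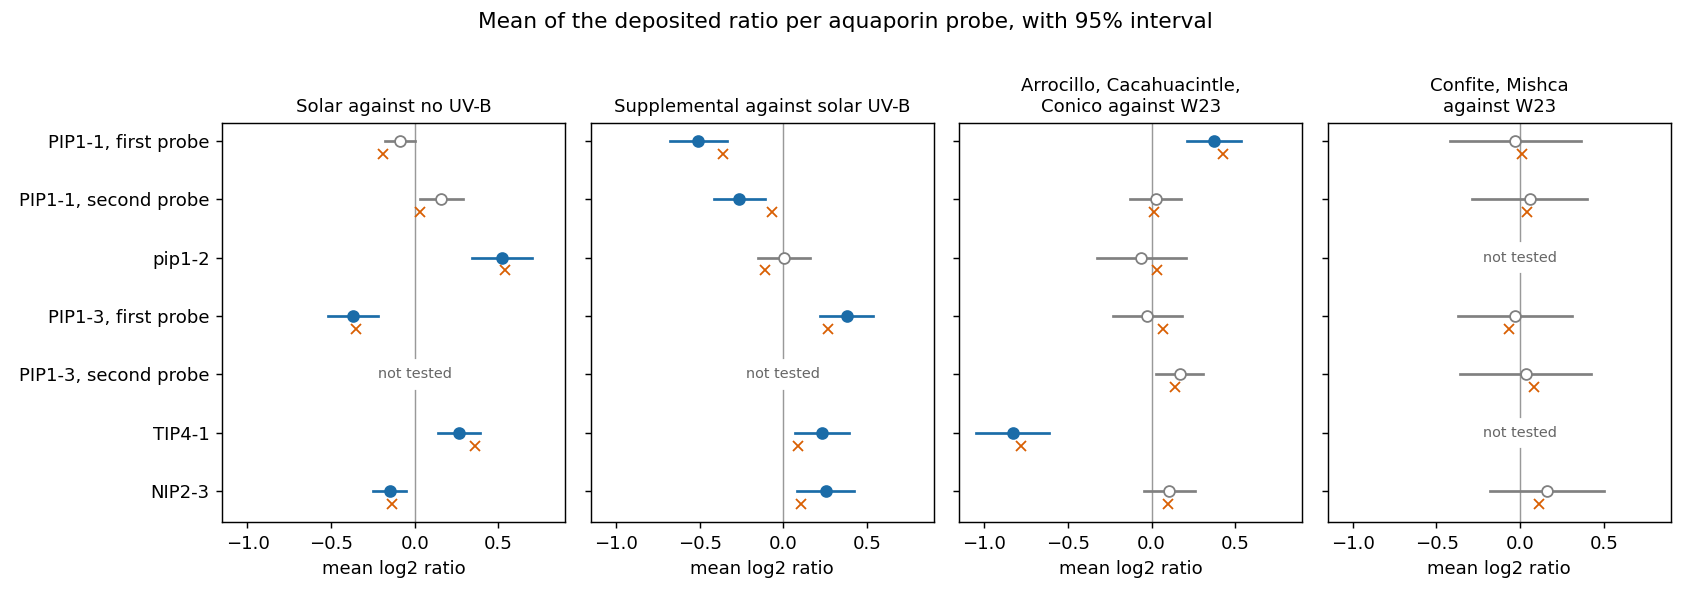
Mean log2 ratio of each aquaporin probe (horizontal axis) in the 4 comparisons, with the 95% interval of the fit as a bar; filled points have an adjusted p under 0.05, and crosses give the mean with sections of the array centred. The largest mean is that of TIP4-1 in Arrocillo, Cacahuacintle and Conico against W23, at -0.83, and in Confite and Mishca against W23 every tested interval includes 0.

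The 2 probes of a gene allow a check within the family. The 2 PIP1-1 probes lay on the same side on 8 of 8 supplemental arrays (r = 0.89), 5 of 9 solar arrays (r = 0.55), 5 of 6 arrays of Confite and Mishca (r = 0.74) and 7 of 12 arrays of Arrocillo, Cacahuacintle and Conico (r = -0.09). The last set is the one in which the first PIP1-1 probe was called and the second was not. The 2 PIP1-3 probes lay on the same side on 3 of 7 supplemental arrays (r = 0.08), 4 of 7 solar arrays (r = 0.17), 3 of 6 arrays of Confite and Mishca (r = -0.48) and 6 of 12 arrays of the other 3 landraces (r = 0.05). The correlation of the PIP1-3 clones was thus 0.17 or lower in each comparison. These are descriptions over arrays that share lines and channel order.

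**Figure D5:**
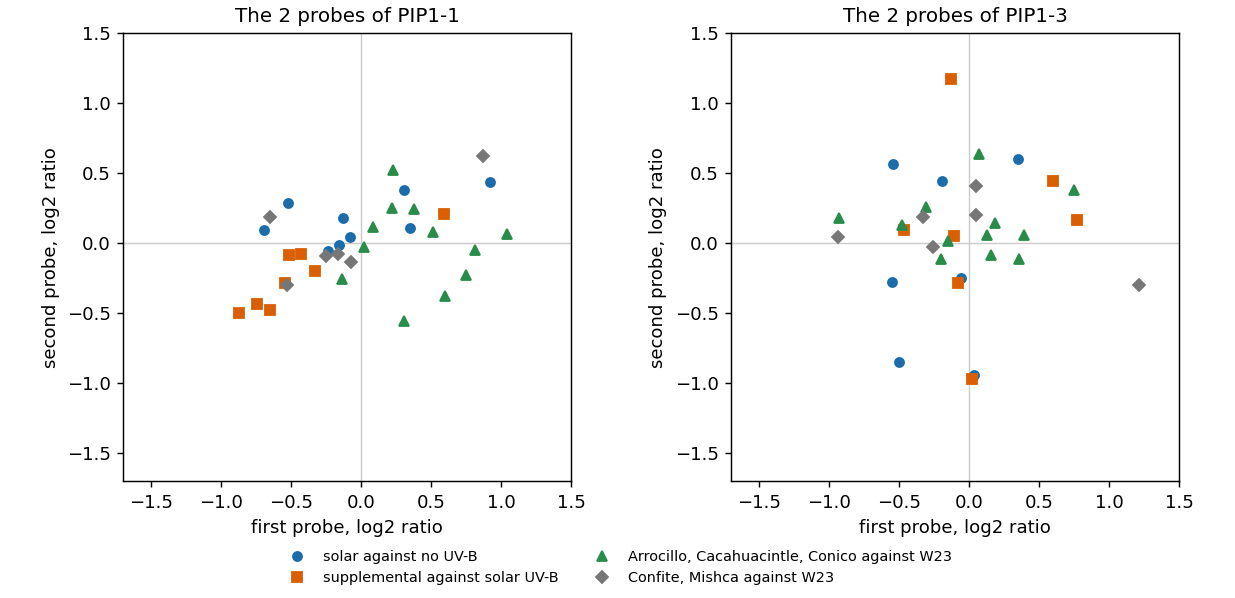
The first probe of a gene (horizontal axis, log2 ratio) against its second probe (vertical axis, log2 ratio), with 1 point per distinct array and the colour and shape giving the comparison, for PIP1-1 on the left and PIP1-3 on the right. The supplemental points of PIP1-1 run together (8 of 8 on the same side), and those of PIP1-3 do not (3 of 7).

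Of the 6 further aquaporin genes on the arrays (PIP1-5, PIP2-4, TIP1-1, TIP2-1, NIP2-1 and SIP1-1, with 8 probes), none of 6 probes tested was called under solar UV-B, beside 35.0% of all probes. Under supplemental UV-B 1 of 7 was called, beside 31.7% of all probes. It was PIP2-4 at -0.24 (SE 0.08, adjusted p = 0.0359), which stood at -0.04 with sections centred (adjusted p = 0.654). PIP2-4 is of the PIP2 type that partners PIP1 proteins. Against W23, 1 of 8 was called in Arrocillo, Cacahuacintle and Conico, a TIP2-1 probe at 0.25 (SE 0.07, adjusted p = 0.0281), with its other probe at 0.04, and 0 of 6 in Confite and Mishca. The shares of all probes called were 25.6% and 1.63%. The median of the tested probes was 0.00 under solar UV-B, -0.01 under supplemental UV-B and -0.01 in the 3 landraces, beside medians over all probes of 0.01, -0.01 and -0.01.

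Among 10 genes of pumps and carriers in the plasma membrane and vacuole, 3 of 9 probes tested were called under solar UV-B, all on the positive side, beside 35.0% of all probes on either side: the plasma membrane proton pump gene mha4 (0.20, SE 0.04), the vacuolar pyrophosphatase gene vpp3 (0.14, SE 0.04) and the iron transporter gene ys1 (0.19, SE 0.04). With sections centred these were 0.02, 0.02 and 0.14, and none was called. Under supplemental UV-B 1 of 10 was called, the pyrophosphatase gene vpp1 (0.26, SE 0.07, adjusted p = 0.0129), beside 31.7% of all probes. Against W23, 3 of 10 were called, beside 25.6% of all probes, in Arrocillo, Cacahuacintle and Conico: vpp1 at 0.39 (SE 0.10), vpp3 at -0.29 (SE 0.08) and a pht7 probe at -0.67 (SE 0.10). None of 4 was called in Confite and Mishca. The counts of 3 are near the shares over all probes. The median of these probes was 0.06 under solar UV-B, -0.03 under supplemental UV-B and -0.11 in the 3 landraces. The water deficit gene asr1 was called under solar UV-B (0.50, SE 0.07, adjusted p = 0.00825) and in the 3 landraces (-0.58, SE 0.09, adjusted p = 0.000343). In both it lay on the side of TIP4-1. Under supplemental UV-B asr1 stood at -0.09 (adjusted p = 0.362), on the other side from TIP4-1. Over the 12 arrays of the 3 landraces it was among the genes most like the second PIP1-1 probe (r = 0.835).

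Some mesophyll markers were called in the solar comparison: 3 of 4 probes of the mesophyll genes lhcb5, Cab-m7 and pdk1 were called on the positive side (0.45, 0.30 and 0.30), and 0 of 2 bundle sheath probes (ssu1 and rca1). Of all probes 35.0% were called on either side, and lists of 4 and 2 probes are too short to compare with that share. Under supplemental UV-B 0 of 4 and 0 of 2 were called, and in Confite and Mishca 0 of 2 of each list. The shares of all probes called were 31.7% and 1.63%. In Arrocillo, Cacahuacintle and Conico against W23, 25.6% of all probes were called. There lhcb5 stood at -0.80 (SE 0.09, adjusted p = 3.52e-05) and rca1 at 0.52 (SE 0.07, adjusted p = 9.03e-05), each the 1 called probe of its list, of 4 and of 2. The part of these differences in the aquaporin values was not tested.

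Seed and pollen genes served as markers of other tissues. Under solar UV-B 2 of 4 such probes were called on the negative side, beside 35.0% of all probes called on either side, a globulin-1 probe at -0.46 and a probe of the pollen expansin gene EXPB9 at -0.34, on the side of the first PIP1-3 probe. The median of the 4 was -0.23. Under supplemental UV-B 2 of 6 were called, beside 31.7% of all probes, both on the positive side as the first PIP1-3 probe was: a Globulin-2 probe at 0.29 and the same EXPB9 probe at 0.28, which stood at 0.13 with sections centred (adjusted p = 0.0835). The median of the 6 was -0.06, on the other side from PIP1-3, and neither count stands far from the share over all probes. In Arrocillo, Cacahuacintle and Conico 3 of 7 were called, globulin-1 probes at -0.31 and 0.48 and a Globulin-2 probe at 0.24. In Confite and Mishca 0 of 4 were called. The shares of all probes called were 25.6% and 1.63%. Across arrays, the 3 named genes most like the first PIP1-3 probe in the larger set were psiP (r = 0.95 over 22 arrays), GB1 (r = 0.94 over 24) and EXPB9 (r = 0.94 over 24), out of 358 probes compared. In the table that holds Arrocillo, Cacahuacintle and Conico they were Qscn6l1 (r = 0.97), psiP (r = 0.95) and gs (r = 0.94), over 12 arrays each. With sections centred these correlations were 0.95, 0.92 and 0.93 in the larger set, and 0.95, 0.94 and 0.88 in the other. The second PIP1-3 probe was most like globulin-1 (r = 0.90 over 20 arrays), hk3 (r = 0.85 over 18) and Globulin-2 (r = 0.83 over 20) in the larger set. Over the 12 arrays of Arrocillo, Cacahuacintle and Conico it was most like LOC541622 (r = 0.675), thi1-2 (r = 0.619) and PIP2-4 (r = 0.616). None of these is on the list of seed and pollen genes. The part of seed or pollen RNA in the PIP1-3 values was not tested.

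As for the second PIP1-3 probe, the most similar patterns of the other aquaporins were weaker or changed between tables. TIP4-1 was most like SIP1-1 (r = 0.93), Cystatin (r = 0.90) and lip15 (r = 0.90) over the 12 arrays of the 3 landraces. Over the larger set it was most like LOC542243 (r = 0.75 over 19 arrays), LOC542358 (r = 0.74 over 22) and LOC542641 (r = 0.70 over 22). NIP2-3 led with Cystatin (r = 0.81 over 22 arrays) in the larger set and with gpi (r = 0.87 over 12) in the other. Of PIP1-1, the first probe led with IDI2 (r = 0.75 over 20 arrays) and ivr2 (r = 0.81 over 12), and the second with expB8 (r = 0.78 over 21) and tua4 (r = 0.84 over 12). The pip1-2 probe led with LOC100125656 (r = 0.63 over 21 arrays) and PR-5 (r = 0.93 over 12). These correlations describe arrays that share lines and channel order, and with sections centred that of expB8 was 0.14 and that of LOC542243 was 0.09.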

How the data were processed

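The authors deposited 2 tables of log2 ratios, 1 value per spot and array, of cDNA arrays read in 2 colours. The series' design text gives models of log2 intensity, and whether the ratios passed through them and how channels were scaled is not stated in what was used here.

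Values of the 3 spots of a probe were averaged (5640 and 5760 probes), and the median of each array was subtracted. Names came from the platform annotation and, for current symbols, the maize assembly Zm-B73-REFERENCE-NAM-5.0. Columns were counted as repeats where their difference had an SD under 0.01, and got a channel code of 0. Probes measured in every group and in 75% of a comparison's arrays were fitted within their table with limma 3.58.1 (R 4.3.3), using a coefficient per line (or landrace and treatment), a channel term, moderated variance and Benjamini-Hochberg adjustment over the whole table. Residual degrees of freedom were 2 (solar), 1 (supplemental), 5 (Arrocillo, Cacahuacintle and Conico) and 2 (Confite and Mishca), and a line with 1 distinct array takes its spread from the others. The fit was tested on simulated data. Titles give 3 Cacahuacintle arrays without and 1 with UV-B.

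The rule for named genes takes every probe of the 5 genes, the called genes of lists of further aquaporins, membrane transport, water deficit and cell type markers, and the 3 named genes most correlated with each probe. Members and lists were chosen with earlier results of these data known, and vpp3, ys1 and MRP2 joined the transport list after names, not values, had been seen. The alternatives changed centring, scaling, filter, channel term, variance, repeated columns and the arrays or lines included. The reading by channel order, leaving out whole lines and the fit of lines with both orders with sections centred were added after the data were seen.

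Same-numbered replicates of different lines deviated together in the solar comparison (r from 0.48 to 0.88 in 6 pairs), and each pair had the same channel order, so number and order cannot be told apart. The same held in the supplemental comparison (r = 0.66, 2 pairs). In a group of 2 arrays the deviations mirror each other. In these comparisons both replicate numbers therefore give the same r for a pair of lines, and the pairs are not independent. With Arrocillo, Cacahuacintle and Conico r ran from -0.11 to 0.75, and with Confite and Mishca from -0.25 to 0.26.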

Additional observations from a re-analysis of the deposited data

Results flagged for a closer look

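Lines differed in the supplemental UV-B comparison for 3 aquaporin probes, by a moderated F test over the line coefficients adjusted over all probes: the first PIP1-3 probe (adjusted p = 0.00125), NIP2-3 (adjusted p = 0.0255) and the first PIP1-1 probe (adjusted p = 0.0478). For PIP1-3 the line values ran from -0.22 in Confite to 1.34 in Mishca, for NIP2-3 from -0.15 in Confite to 0.98 in Mishca, and for PIP1-1 from -0.87 in Arrocillo to 0.13 in Conico. With sections centred the adjusted p-values were 2.65e-05, 0.0052 and 0.00294. With arrays scaled to equal spread 0 of the 3 were called, and 0 without the Mishca array, whose log2 ratios had an SD of 0.657 against 0.285 to 0.431 on the other arrays. Lines with 1 distinct array have no spread of their own in this test.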

How the results depend on the processing

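TIP4-1 in Arrocillo, Cacahuacintle and Conico kept its call and side in all 23 alternatives, and the solar pip1-2 mean lost its call in 3 of 29. The solar count of called aquaporin probes (4) was 0 without the channel term, 0 without moderation and 0 if the ratios follow the channel order. Over all probes these settings gave 11, 2 and 0 calls, against 1485. The supplemental count (5) was 0 under each of these, and so was the count over all probes, against 1504. It was 2 with sections centred, 3 with arrays scaled to equal spread and 3 with the second label's order for repeated columns. Over the lines with both channel orders it was 0, over those with sections centred 2, and without Mishca 2. In the same order, these last settings called 1675, 879, 1405, 184, 1000 and 733 of all probes. With sections centred the aquaporin count thus fell while the count over all probes rose. The solar difference between lines (0 called) gave 3 with sections centred, 3 with equal spread, 4 with the second label's order, 5 with repeated columns counted as arrays, 5 with the third W23 array kept, 2 over lines with both orders and sections centred, 5 without W23, 1 without Confite and 2 without Mishca. The supplemental difference (3) gave 1 without centring, 0 without the channel term, 0 with equal spread, 1 over lines with both orders, 0 by channel order and 0 without Mishca. Leaving out 1 array gave 3 to 6 solar and 2 to 5 supplemental calls, 2 to 3 with Arrocillo, Cacahuacintle and Conico and 0 to 0 with Confite and Mishca. The differences between lines then gave 0 to 6 solar, 0 to 3 supplemental and, in Confite and Mishca, 0 to 1. In the supplemental comparison only the arrays of Mishca, Arrocillo, Cacahuacintle and W23 could be left out, since no residual degree of freedom remained without one of the others. The replicate block gave 3 solar, 4 supplemental, 2 and 0 calls, and 2 supplemental differences. Over all probes it gave 288, 1426, 580 and 35. Apart from repeated columns the block carries the channel order, except with Confite and Mishca, where 2 of 6 same-numbered pairs shared that order. Over all settings 0 to 2649 solar probes, 0 to 2814 supplemental probes, 580 to 1827 probes with Arrocillo, Cacahuacintle and Conico and 0 to 120 with Confite and Mishca were called. Sections centred gave 5 solar, 6 supplemental and 6 landrace calls by line, against 7, 4 and 4.

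Sides changed as follows, and the cause was not tested. Over lines with both orders, the solar mean was 0.0934 for the first PIP1-1 probe (0.0102 with sections centred) and -0.011 for TIP4-1, and the supplemental mean of the first PIP1-3 probe was -0.1624 (-0.2199 with sections centred). By channel order the first PIP1-1 probe stood at 0.0465 and NIP2-3 at 0.0657 under solar UV-B. The supplemental pip1-2 mean was -0.1078 with sections centred, -0.0377 with equal spread, -0.0055 with the second label's order, -0.1055 over lines with both orders (-0.163 with sections centred), -0.1015 without Mishca and -0.0042 without Cacahuacintle, and ran from -0.1015 to 0.0515 on leaving out 1 array. With Arrocillo, Cacahuacintle and Conico, the second PIP1-1 probe stood at -0.038 without centring, -0.0828 with the replicate block, -0.1484 by channel order, -0.0478 without Cacahuacintle and -0.0132 without Conico, and from -0.063 to 0.0672 without 1 array. There pip1-2 stood at 0.0336 with sections centred, 0.0703 by channel order and 0.0201 without Arrocillo, and from -0.191 to 0.0391 without 1 array. The first PIP1-3 probe stood at 0.0705 with sections centred, 0.0125 without the channel term, 0.0033 with equal spread and 0.0293 without Cacahuacintle, and from -0.1045 to 0.0376 without 1 array. By channel order the second PIP1-3 probe stood at -0.0653 and NIP2-3 at -0.1815.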
